A study of Arabidopsis thaliana with 12 samples.

Results

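RCA, LHCB4.1 and PSAN are 3 nuclear genes of Arabidopsis thaliana whose products work in the chloroplast, and their transcripts were measured here in roots. The members are the probe sets of the array that its annotation gives to RCA (AT2G39730), LHCB4.1 (AT5G01530) or PSAN (AT5G64040) alone. The rule found 3 probe sets, 1 for each gene, among the 22810 on the array, and 0 probe sets that name a member together with another gene. In all, 13286 genes could be named, so these are 3 of 13286.

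The 4 groups were roots held at pH 6 for 8 h, at pH 4.5 for 8 h, at pH 6 for 1 h and at pH 4.5 for 1 h, each measured on 3 Affymetrix ATH1 arrays, 1 per sample. All 12 samples were total RNA of roots of the Col-0 (Columbia) strain, stage 3.90 weeks, from plants germinated on 0.7% agarose and moved to hydroponic culture at 23 °C, which was not kept sterile. No mutant, transgene or other agent is labelled, no group was taken before the treatment, and the labels give neither the pH of the culture before it nor the hour of the day at sampling. Separate cultures or plants are not stated for the replicates, so the p-values cover the spread among these 12 samples, part of which may be technical.

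Rubisco activase, the product of RCA, uses ATP to free the carbon-fixing enzyme Rubisco from sugar phosphates that block its active sites. LHCB4.1 encodes a form of CP29, a minor chlorophyll-binding antenna protein that links the mobile light-harvesting complexes to the photosystem II core. PSAN encodes the N subunit of photosystem I, which lies on the lumen side of the thylakoid membrane and takes part in electron transfer from plastocyanin. In leaves, nuclear genes of this kind are known to follow light and the circadian clock, whereas roots are mostly not green and hold these transcripts at low levels. RNA of whole roots cannot tell fewer cells that express a gene from less of its RNA per cell.

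The signals are on a linear scale on which each array has a trimmed mean of 100. Array medians ran from 38.2 to 40.2, and precision is set by having 3 arrays a group. Log2 differences are of log2(signal + 3.92), and a probe set was tested when its mean on this scale reached the 30th percentile, equal to a signal of 10.4. All 3 members passed that filter, which takes the mean over all groups, and were among the 15922 probe sets tested. For PSAN the mean on this scale was 3.05 at pH 6 and 4.16 at pH 4.5 after 8 h. After 1 h it was 5.39 at pH 6 and 5.30 at pH 4.5, so the 1 h signals raised the mean that the filter used. At pH 6 after 8 h the mean PSAN signal, 6.11, lay under 10.4. Across these probe sets Pearson's r was 0.976 to 0.989 within groups and 0.921 to 0.967 between them, and 0 pairs of arrays held identical values.

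The 3 genes were lower after 8 h than after 1 h at both pH values. RCA signals were 31.4, 27.4 and 31.9 at pH 6 after 8 h and 18.9, 22.3 and 26.7 at pH 4.5 after 8 h, against 45.6, 46.8 and 67.3 at pH 6 after 1 h and 61.5, 35.1 and 56.2 at pH 4.5 after 1 h. All 6 arrays at 8 h lay below all 6 at 1 h, with the highest value at 8 h (31.9) close under the lowest at 1 h (35.1), which came from replicate 2 of pH 4.5. At pH 6 RCA averaged 30.2 ± 2.46 after 8 h and 53.2 ± 12.2 after 1 h (SD, n = 3 each). Its log2 difference, 8 h minus 1 h, was -0.72 ± 0.20 (SE, adjusted p = 0.0142 by limma's moderated test with Benjamini-Hochberg adjustment over all probe sets tested). At pH 4.5 RCA averaged 22.6 ± 3.90 after 8 h and 50.9 ± 13.99 after 1 h, with a log2 difference of -1.02 ± 0.20 (limma adjusted p = 0.000742). These differences correspond to levels 1.65-fold lower at pH 6 and 2.03-fold lower at pH 4.5 after 8 h. The call at pH 6 ended without replicate 3 of pH 6, 1 h, which held the highest RCA signal (-0.56, limma adjusted p = 0.0797), or without replicate 2 of pH 6, 8 h (-0.66, limma adjusted p = 0.0554). That replicate 3 also had the lowest 3' to 5' signal ratios of actin (10.0) and GAPDH (0.928) among the 12 arrays. At pH 6 the actin ratio averaged 14.6 ± 4.02 after 1 h and 17.6 ± 2.88 after 8 h, and the GAPDH ratio 1.11 ± 0.169 and 1.30 ± 0.192. The part of these ratios in the time differences was not tested.

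LHCB4.1 signals were 51.2, 41.8 and 35.4 at pH 6 after 8 h and 30.03, 26.95 and 33.01 at pH 4.5 after 8 h, against 76.4, 72.2 and 85.9 at pH 6 after 1 h and 76.7, 46.5 and 59.8 at pH 4.5 after 1 h. Within each pH the arrays at 8 h lay below those at 1 h, as they did for RCA and PSAN and for 16.8% of all probe sets tested at pH 6 and 17.8% at pH 4.5. Across pH values there was an overlap, since replicate 1 of pH 6 after 8 h (51.2) stood above replicate 2 of pH 4.5 after 1 h (46.5). At pH 6 LHCB4.1 averaged 42.8 ± 7.98 after 8 h and 78.2 ± 7.03 after 1 h, a log2 difference of -0.82 ± 0.17 (limma adjusted p = 0.00194). At pH 4.5 it averaged 29.998 ± 3.03 after 8 h and 61.0 ± 15.1 after 1 h, a log2 difference of -0.91 ± 0.17 (limma adjusted p = 0.000486). The fall was 1.77-fold at pH 6 and 1.88-fold at pH 4.5, and neither call was lost when any 1 of the 12 arrays was left out.

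PSAN had a wider standard error than the other genes in these comparisons. Its signals were 14.99, 2.73 and 0.626 at pH 6 after 8 h and 10.8, 15.5 and 16.04 at pH 4.5 after 8 h, against 46.3, 37.5 and 31.8 at pH 6 after 1 h and 43.3, 34.3 and 29.9 at pH 4.5 after 1 h. All 6 arrays at 8 h lay below all 6 at 1 h, with 16.04 the highest at 8 h and 29.9 the lowest at 1 h. At pH 6 PSAN averaged 6.11 ± 7.76 after 8 h and 38.5 ± 7.28 after 1 h. The log2 difference was -2.34 ± 0.36 (limma adjusted p = 0.000129). Its size depends on the added constant, at -3.09 with a constant of 1 and -1.86 with 20% of the median signal, since 2 of the 3 signals at 8 h lay under 10.4. At pH 4.5 PSAN averaged 14.1 ± 2.87 after 8 h and 35.9 ± 6.81 after 1 h, a log2 difference of -1.14 ± 0.36 (limma adjusted p = 0.0253). The fall at pH 4.5 was 2.21-fold on the log2(signal + 3.92) scale, which understates changes near the added constant. At pH 4.5 the call ended when replicate 1 or 2 of pH 4.5, 1 h (limma adjusted p = 0.0982 and 0.0572) or replicate 1 or 2 of pH 4.5, 8 h (limma adjusted p = 0.0946 and 0.0513) was left out, and at pH 6 it held without any 1 array. The standard error of 0.36 pools all 4 groups. The SD of PSAN on the log2 scale was 1.06 at pH 6, 8 h and 0.24 to 0.25 in the other groups. With only the 2 pH 4.5 groups compared, the time difference was -1.14 ± 0.20 (limma adjusted p = 0.000863).

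In the pH 6, 8 h group, 2 of the 3 PSAN signals were under 10.4, and no detection calls were used here, so these values mark a low signal rather than a measured level. The same 2 arrays, replicates 2 and 3, had the highest 3' to 5' signal ratios of ubiquitin among the 12, at 2.60 and 3.09, while replicate 1 of that group had 2.17 and the other groups averaged 2.28 ± 0.0716 (pH 4.5, 8 h), 2.27 ± 0.0836 (pH 6, 1 h) and 2.25 ± 0.222 (pH 4.5, 1 h). The actin ratio did not set these arrays apart, at 18.5, 19.9 and 14.4 in replicates 1, 2 and 3 of the group. The GAPDH ratio was 1.10, 1.49 and 1.32 in that order, higher in replicates 2 and 3 as the ubiquitin ratio was. In the pH 4.5, 8 h group the GAPDH ratio averaged 1.44 ± 0.0546. On the same 3 arrays LHCB4.1 was 51.2, 41.8 and 35.4, lower on replicates 2 and 3 as PSAN was, while RCA was 31.4, 27.4 and 31.9. The part of these control ratios in the PSAN values was not tested.

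**Figure D1:**
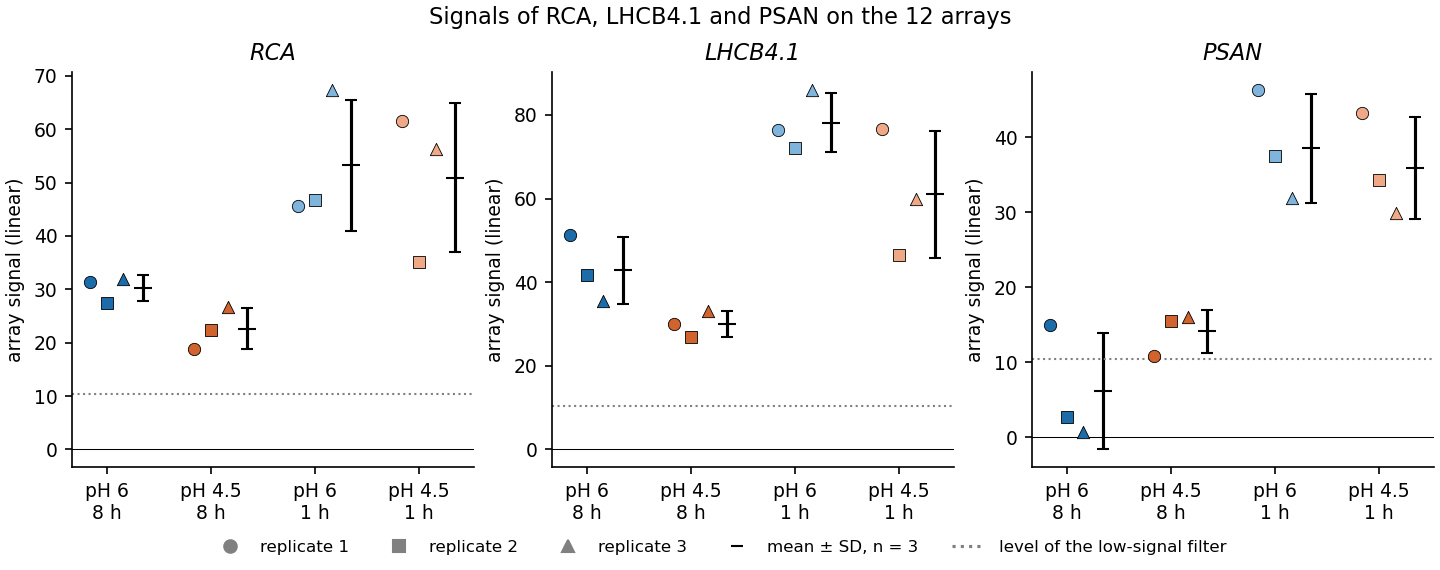
Array signals (linear scale) of RCA, LHCB4.1 and PSAN on the 12 arrays, by pH and time; marker shapes stand for replicate numbers, black bars for the mean ± SD of 3 arrays, and the dotted line for the signal of 10.4 that the low-signal filter corresponds to. RCA and PSAN at 8 h lie below every value at 1 h, LHCB4.1 does so within each pH, and 2 PSAN values at pH 6 after 8 h (2.73 and 0.626) lie under the dotted line.

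All 3 genes passed the test on the lower side in each time comparison. Over all probe sets tested, 19.4% passed at pH 6 (10.6% lower and 8.86% higher after 8 h) and 23.6% at pH 4.5 (11.1% lower and 12.5% higher). Probe sets lower at both pH values, which were measured on separate arrays, made up 3.39%. For RCA and PSAN all 6 arrays at 8 h lay below all 6 at 1 h, which held for 3.1% of the probe sets tested. The median log2 difference over all probe sets was 0.01 at pH 6 and 0.02 at pH 4.5. The genes were chosen with results of these data known, so their count is a description. Of the variation of each gene over the 12 arrays on the log2 scale, the time took 73.6% in RCA, 71.2% in LHCB4.1 and 67.0% in PSAN, and the pH took 4.79% in RCA, 15.6% in LHCB4.1 and 5.67% in PSAN. The spread between replicates took 19.5% in RCA, 13.0% in LHCB4.1 and 19.3% in PSAN, and the combination of pH and time took the rest.

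After 8 h, PSAN was lower at pH 6 than at pH 4.5, while RCA and LHCB4.1 had higher means at pH 6 that did not pass the test. For PSAN the log2 difference, pH 6 minus pH 4.5, was -1.11 ± 0.36 (limma adjusted p = 0.0262), but the groups overlapped, since replicate 1 of pH 6 (14.99) stood above replicate 1 of pH 4.5 (10.8). This call ended without replicate 2 or 3 of pH 6, 8 h (-0.95 and -0.67, limma adjusted p = 0.0969 and 0.149) or without replicate 2 or 3 of pH 4.5, 8 h (-1.05 and -1.03, limma adjusted p = 0.0787 and 0.0802). Without replicate 1 of pH 6, 8 h the difference was -1.70. RCA averaged 30.2 at pH 6 and 22.6 at pH 4.5 after 8 h and the 3 arrays of each did not overlap. The log2 difference was 0.37 ± 0.20 (95% interval -0.04 to 0.79, limma adjusted p = 0.179). LHCB4.1 averaged 42.8 at pH 6 and 29.998 at pH 4.5, again without overlap, and differed by 0.45 ± 0.17 (95% interval 0.10 to 0.81, limma adjusted p = 0.0542). The LHCB4.1 difference passed the threshold without replicate 3 of pH 6, 8 h (0.57, limma adjusted p = 0.0279). It also passed without replicate 1 or 2 of pH 4.5, 1 h (limma adjusted p = 0.0386 and 0.0355). Those arrays are outside this comparison, so the difference stayed at 0.45 and the pooled standard error fell to 0.155 and 0.153.

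Of the 3 genes, 1 was called lower and 0 higher at pH 6 after 8 h. Over all probe sets 27.7% passed, 13.2% lower and 14.5% higher. Complete separation of the 3 arrays with pH 6 above, as in RCA and LHCB4.1, was found in 22.3% of the probe sets tested. The ubiquitin and GAPDH ratios given above belong to this comparison as well.

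After 1 h, 0 of the 3 genes passed the test between pH 6 and pH 4.5. Over all probe sets 10.7% passed, and of these calls 48.6% were higher at pH 6 and 33.7% with each array centred on its median. RCA averaged 53.2 at pH 6 and 50.9 at pH 4.5, differing by 0.07 on the log2 scale (95% interval -0.34 to 0.49, limma adjusted p = 0.867). PSAN averaged 38.5 at pH 6 and 35.9 at pH 4.5, differing by 0.09 on that scale (95% interval -0.65 to 0.84, limma adjusted p = 0.909). LHCB4.1 averaged 78.2 at pH 6 and 61.0 at pH 4.5, differing by 0.36 ± 0.17 (95% interval 0.01 to 0.72, limma adjusted p = 0.202). The arrays of the 2 pH groups overlapped in all 3 genes at this time. A fold change of up to 1.40 for RCA and 1.79 for PSAN lies within these intervals.

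The difference between the pH effect at 8 h and at 1 h was tested directly and 0 of the 3 genes passed (0 of 3 by limma, with PSAN at an unadjusted p of 0.0285). Over all probe sets 15.4% passed, and of these calls 46.4% were higher and 56.7% with each array centred on its median. It was 0.30 ± 0.28 on the log2 scale for RCA (limma adjusted p = 0.542), 0.09 ± 0.24 for LHCB4.1 (limma adjusted p = 0.855) and -1.20 ± 0.50 for PSAN (limma adjusted p = 0.123). The 95% interval for PSAN ran from -2.26 to -0.14. Without replicate 1 of pH 6, 8 h, the array with the highest PSAN signal in its group, the PSAN value was -1.79 and passed (limma adjusted p = 0.00132).

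**Figure D2:**
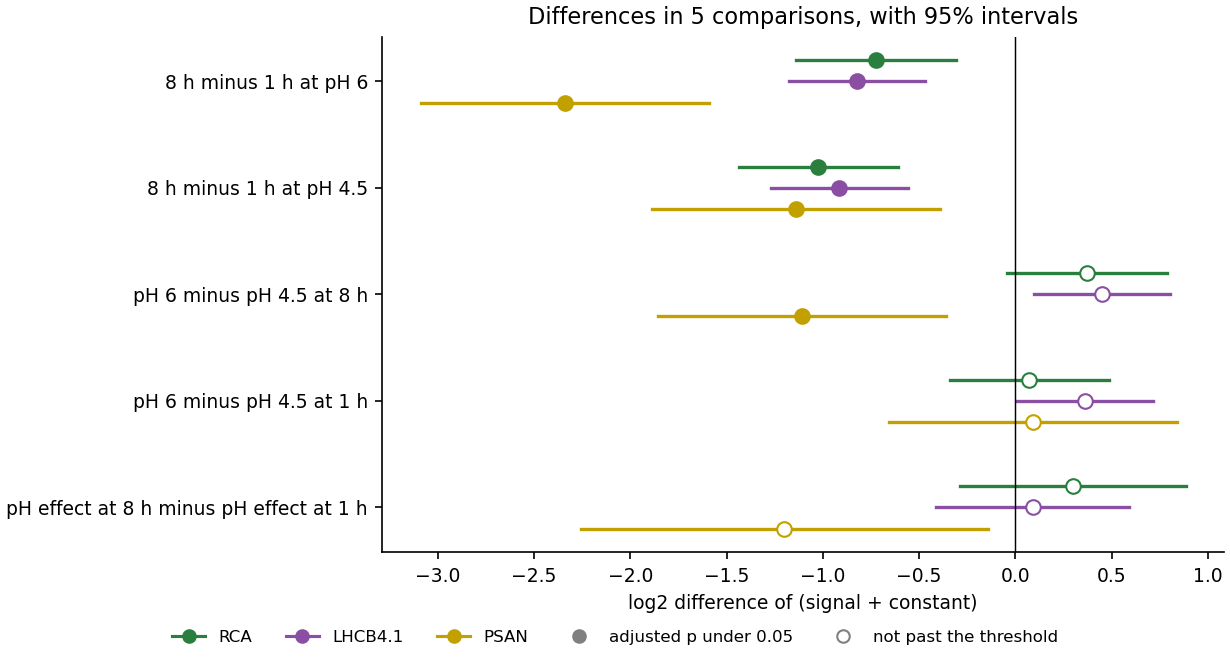
Log2 differences of RCA, LHCB4.1 and PSAN in 5 comparisons; lines are 95% intervals from limma, filled points have an adjusted p under 0.05 and open points do not. All 6 time differences are filled and lie left of 0, from -0.72 to -2.34, and PSAN at 8 h (-1.11) is the only filled point among the pH differences.

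The order of the 4 group means differed between the genes in its lower part. For RCA and LHCB4.1 it was, from high to low, pH 6 at 1 h, pH 4.5 at 1 h, pH 6 at 8 h and pH 4.5 at 8 h. The RCA medians at 1 h stood the other way, 46.8 at pH 6 and 56.2 at pH 4.5. In RCA the middle step, pH 6 at 8 h against pH 4.5 at 1 h, had a log2 difference of -0.65 (limma adjusted p = 0.0197), in a comparison that 27.2% of all probe sets passed, while the outer steps, both between pH values at 1 time, did not pass. In LHCB4.1 the middle step was -0.46 (limma adjusted p = 0.0497), close to the threshold, and the outer steps did not pass. For PSAN the order was pH 6 at 1 h, pH 4.5 at 1 h, pH 4.5 at 8 h and pH 6 at 8 h. The first step did not pass, and the steps below it were the differences of -1.14 and -1.11 given above.

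Likeness between the genes is given as a description. Over the 12 arrays, which share the fall between 1 h and 8 h, the log2 values of RCA and LHCB4.1 had a Pearson correlation of 0.926. Among the 15921 other probe sets, LHCB4.1 ranked 4th in likeness to RCA, and RCA ranked 15th in likeness to LHCB4.1. The correlation with PSAN was 0.619 for RCA and 0.673 for LHCB4.1, where PSAN ranked 1238th and 1022nd. After the mean of each group was taken out, the deviations of the 12 arrays correlated at 0.688 for RCA with LHCB4.1, 0.559 for LHCB4.1 with PSAN and 0.0501 for RCA with PSAN. Replicate 2 of pH 4.5, 1 h was the lowest of its group in both RCA (35.1) and LHCB4.1 (46.5) and stood in the middle of its group in PSAN (34.3).

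**Figure D3:**
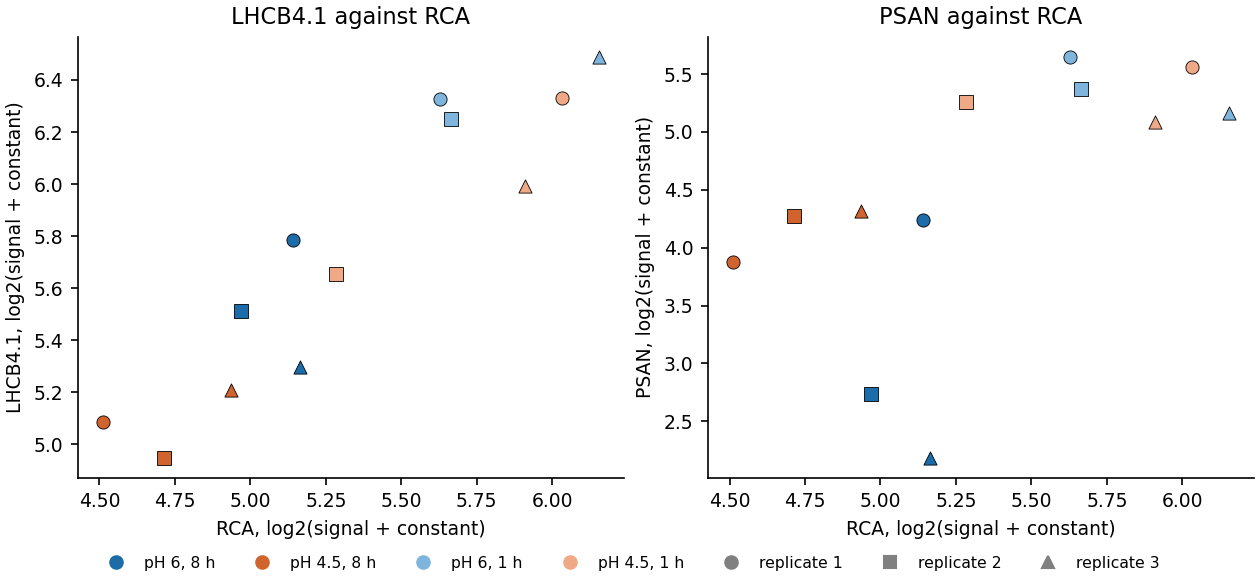
Log2(signal + constant) of LHCB4.1 (left) and PSAN (right) against RCA on the 12 arrays; colours stand for the pH and time groups and shapes for replicate numbers. LHCB4.1 runs along with RCA (0.926), while PSAN (0.619) drops below the other arrays in replicates 2 and 3 of pH 6 after 8 h.

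Among the 8754 other probe sets that name a single gene, the 5 most like RCA were LHCB4.1 (0.926), AT5G19940 (0.909), AT5G48960 (0.908), AT2G36930 (0.907) and AT5G14120 (0.907). AT5G14120 had mean signals of 391 at pH 6 and 216 at pH 4.5 after 8 h, against 1003 at pH 6 and 1237 at pH 4.5 after 1 h. The 5 most like LHCB4.1 were AT2G37440 (0.940), AT3G60200 (0.935), PSB27 (0.929), AT5G24490 (0.927) and RCA (0.926). PSB27 encodes a lumenal protein known for its part in the assembly and repair of photosystem II. The 5 most like PSAN were AT1G23120 (0.952), AT5G47050 (0.948), AT2G04690 (0.945), AT3G11390 (0.940) and AT5G58720 (0.939), and 0 of them is in the photosynthesis lists used here. The values in parentheses are Pearson correlations of log2 signals over the 12 arrays, and the genes given by a locus code have no other name in the annotation used.

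Other nuclear genes of the photosynthetic machinery were listed for comparison from general knowledge. Of 89 listed genes of carbon fixation, light harvesting, both photosystems, electron transport and ATP synthase, 14 had a probe set annotated to them alone. The annotation names no gene for 8730 of the 22810 probe sets, so listed genes it leaves out may still be on the array. Of the 14, 10 passed the filter. Of these 10, 3 were lower and 0 higher after 8 h at pH 6, and 4 were lower and 1 higher at pH 4.5. The shares of all probe sets tested were 10.6% lower and 8.86% higher at pH 6, and 11.1% lower and 12.5% higher at pH 4.5. These shares stand beside the time counts of the lists that follow as well. The median log2 difference of the 10 genes was -0.39 at pH 6 and -0.52 at pH 4.5, and 9 of the 10 values were below 0 in each. Between pH values 0 of the 10 passed in either direction at 8 h or at 1 h, where 27.7% and 10.7% of all probe sets passed. The 4 that did not pass the filter, LHCB4.2, PSAE-1, PRK and SBPASE, are described by their signals further on. The listed genes without a probe set annotated to them alone are not analysed here. Genes given by a locus code were placed in these lists from general knowledge, since the annotation has no other name for them.

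The largest fall among the 10 genes that passed the filter was that of ATPC1, which encodes the gamma subunit of the chloroplast ATP synthase. It averaged 36.9 ± 3.31 at pH 6 and 28.3 ± 8.28 at pH 4.5 after 8 h, against 98.2 ± 4.06 at pH 6 and 81.7 ± 17.6 at pH 4.5 after 1 h. Its log2 differences were -1.32 ± 0.17 at pH 6 (limma adjusted p = 2.84e-05) and -1.42 ± 0.17 at pH 4.5 (limma adjusted p = 6.50e-06). ATPC2, its close relative, averaged 52.6 ± 4.12 and 53.3 ± 1.33 after 8 h, against 60.1 ± 4.38 and 61.9 ± 3.35 after 1 h, at pH 6 and pH 4.5 in that order, and did not pass (-0.18 and -0.20). The 6 ATPC2 arrays at 8 h nevertheless lay below the 6 at 1 h.

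Of 16 listed photosystem II genes 5 were tested, and 2 were lower after 8 h at pH 6 and 3 at pH 4.5. PSB27 averaged 19.3 ± 3.25 at pH 6 and 15.99 ± 2.44 at pH 4.5 after 8 h, against 35.999 ± 6.79 at pH 6 and 33.0 ± 3.30 at pH 4.5 after 1 h, with log2 differences of -0.78 and -0.89. AT1G51400 had log2 differences of -0.93 at pH 6 and -0.84 at pH 4.5. PSBW, a small subunit of the photosystem II core, had -0.98 at pH 4.5 (limma adjusted p = 0.00211) and -0.47 at pH 6, which did not pass. PSBY and AT1G76450 did not pass at either pH. The gene called higher at pH 4.5 was AT1G56190, listed under carbon fixation, which averaged 462 ± 57.6 after 8 h and 351 ± 18.8 after 1 h at that pH (0.39, limma adjusted p = 0.00974).

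The relatives of LHCB4.1 gave little signal, as did PSAE-1, PRK and SBPASE. LHCB4.2, which encodes another form of CP29, was under the filter, with signals of 0.639 to 4.13 on the 6 arrays at 8 h and 8.15 to 25.8 on the 6 arrays at 1 h. When the filter was dropped its log2 differences were -1.93 at pH 6 (limma adjusted p = 0.00149) and -1.67 at pH 4.5 (limma adjusted p = 0.00274), and all its arrays at 8 h lay below those at 1 h. LHCB4.3, another CP29-type gene, averaged 11.7 and 7.44 after 8 h, against 13.8 and 11.9 after 1 h, at pH 6 and pH 4.5 in that order, and did not pass (-0.17 and -0.42). PSAE-1, a stromal subunit of photosystem I, was also under the filter, at 1.68 to 16.2 after 8 h and 7.24 to 31.3 after 1 h. The carbon fixation enzymes PRK and SBPASE had signals of at most 14.9 on every array.

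In chlorophyll synthesis, of 8 genes tested, 2 were lower after 8 h at pH 6 and 3 at pH 4.5, and 0 were higher. CHLM, which methylates magnesium protoporphyrin on the branch to chlorophyll, had log2 differences of -0.67 ± 0.18 at pH 6 and -0.97 ± 0.18 at pH 4.5. AT1G74470, geranylgeranyl reductase, which supplies the phytol tail, had -0.73 ± 0.13 and -0.82 ± 0.13. PORB, a light-dependent protochlorophyllide oxidoreductase, had -1.01 ± 0.31 at pH 4.5 (limma adjusted p = 0.0223) and -0.22 ± 0.31 at pH 6, which did not pass. The earlier steps shared with haem, GSA1, HEMB1, HEMA2, HEME1 and HEME2, did not pass at either pH, with values between -0.38 and 0.23. CHLM was also the gene of this list called between pH values, higher at pH 6 after 8 h (54.8 ± 15.2 against 33.5 ± 8.87 at pH 4.5, limma adjusted p = 0.0134).

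In photorespiration, the salvage pathway for the product of the oxygenase reaction of Rubisco, 1 of 3 genes tested was lower after 8 h at pH 6 and 2 at pH 4.5. AT1G80380 averaged 355 ± 10.8 at pH 6 and 373 ± 56.4 at pH 4.5 after 8 h, against 562 ± 39.3 at pH 6 and 1156 ± 186 at pH 4.5 after 1 h. Its log2 differences with time were -0.66 at pH 6 and -1.62 at pH 4.5, and the difference between its pH effects passed the test (0.96, limma adjusted p = 0.000421). AT1G11860 was lower after 8 h at pH 4.5 (-0.35, limma adjusted p = 0.0119), with -0.02 at pH 6, which did not pass.

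**Figure D4:**
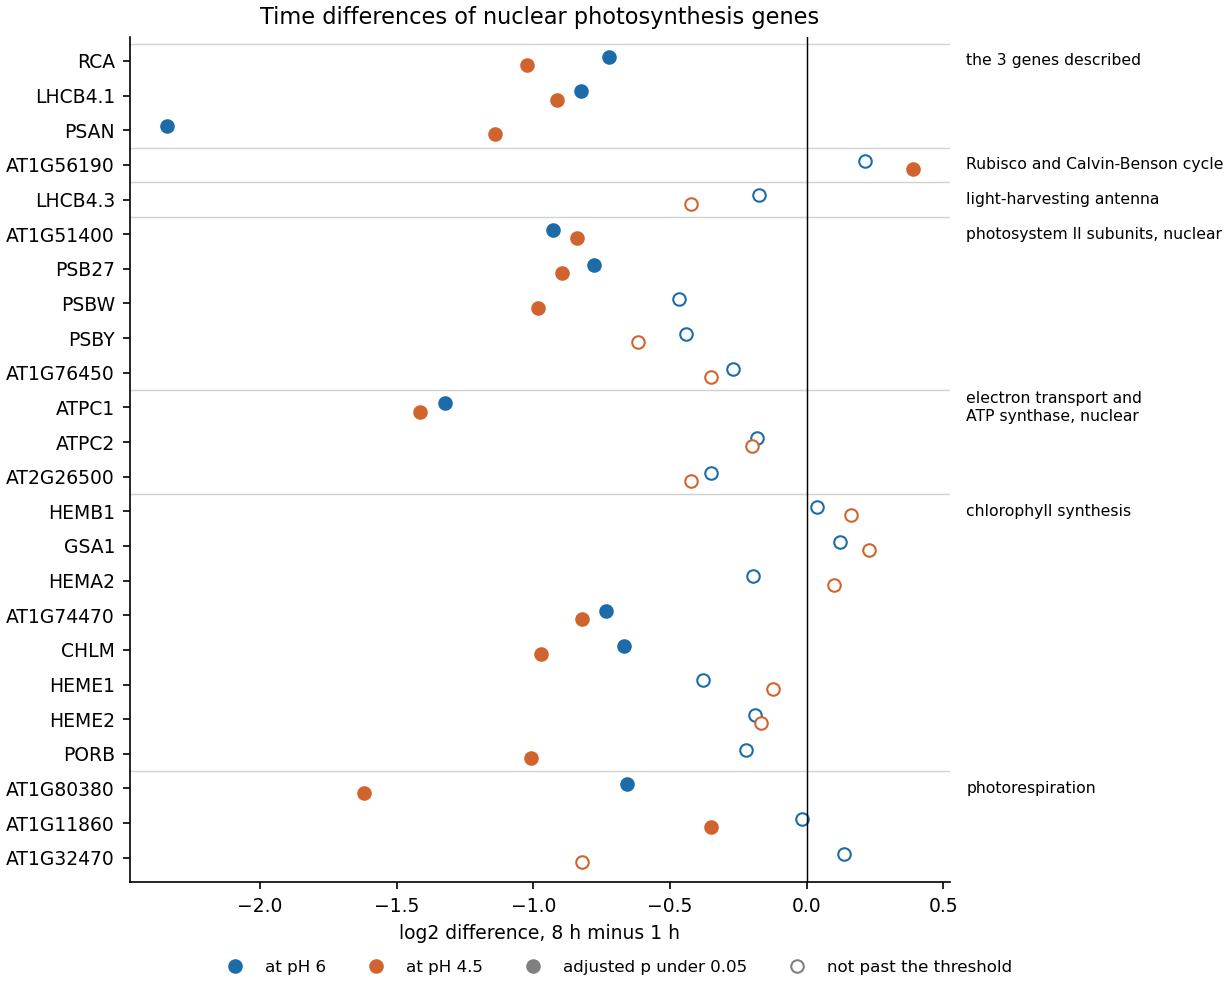
Log2 differences, 8 h minus 1 h, at pH 6 (blue) and pH 4.5 (orange) of RCA, LHCB4.1, PSAN and listed genes past the filter. The lists are nuclear photosynthesis, chlorophyll synthesis and photorespiration, without the clock gene GI and the regulator HYH. Filled points have an adjusted p under 0.05. PSAN at pH 6 (-2.34), AT1G80380 at pH 4.5 (-1.62) and ATPC1 (-1.32 and -1.42) lie farthest to the left, and AT1G56190 (0.39) is the filled point right of 0.

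Plastid-encoded photosynthesis genes were read beside the nuclear ones. Of 43 tested, 0 were higher and 4 lower after 8 h at pH 6, with a median of -0.15, and 4 were higher and 0 lower at pH 4.5, with a median of 0.11. Among all probe sets tested, 8.86% were higher and 10.6% lower at pH 6, and 12.5% higher and 11.1% lower at pH 4.5. The counts of this list are therefore given as a description. The 4 at pH 6 were psaA (-0.83), psbB (-0.75), petG (-0.60) and psbF (-0.51), and the 4 at pH 4.5 were rbcL (0.55), ndhI (0.46), psaI (0.41) and psaJ (0.38). The arrays label 3' ends of polyadenylated RNA, which represents plastid transcripts poorly, so these values are given as deposited.

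Of 23 listed circadian clock genes GI had a probe set annotated to it alone, and of 19 listed regulators of photosynthesis genes HYH did. GI, a light- and clock-regulated gene, averaged 135 ± 11.95 at pH 6 and 165 ± 12.3 at pH 4.5 after 8 h, against 355 ± 4.34 at pH 6 and 363 ± 15.6 at pH 4.5 after 1 h, with log2 differences of -1.37 and -1.12. HYH, a relative of the light-response factor HY5, rose after 8 h by log2 differences of 0.94 at pH 6 and 0.72 at pH 4.5. The labels give no hour of sampling, so the length of the treatment and the time of day cannot be told apart.

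Markers of root and shoot were read beside the members. Of 23 root markers 3 had a probe set annotated to them alone. Their summed signal was 3447 to 4941 at pH 6 and 3790.0 to 4425 at pH 4.5 after 8 h. After 1 h it was 3029 to 3276 at pH 6 and 3020.3 to 3799 at pH 4.5. PYK10, a root beta-glucosidase, made up most of the sum and was higher after 8 h at pH 6 (0.45, limma adjusted p = 0.0164), with 0.29 at pH 4.5, which did not pass. EXPA7, a root hair expansin, was lower after 8 h at pH 4.5 (-0.55, limma adjusted p = 0.0145) and had 0.05 at pH 6, which did not pass. EXPA18, another root hair expansin, did not pass at either pH (0.16 at pH 6 and 0.01 at pH 4.5). Of 12 markers of shoot epidermis and leaf 4 had such a probe set, FMA, SPCH, MUTE and YAB3, and all 4 were under the filter. Their summed signal was 6.20 to 16.6 at pH 6 and 8.91 to 27.2 at pH 4.5 after 8 h, against 11.98 to 14.2 at pH 6 and 5.37 to 16.6 at pH 4.5 after 1 h, and these ranges overlap. The part of root or shoot tissue in the fall of the members was not tested beyond these levels.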

How the data were processed

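The deposited values are signal intensities, for which the submitters' processing notes name MAS5 and GCOS without a version. The mean of every array is 100 after 2% of the signals is trimmed from each end. The table holds 22810 probe sets, of which 64 are array controls. Names came from the array annotation and the RefSeq table of TAIR10.1, which matched 13436 probe sets. No coordinates are given, since the value file names no build, and no sequences were used here.

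Values were analysed as log2(signal + 3.92), where 3.92 is 10% of the median signal. Control probe sets and those under the 30th percentile of mean log2 value were left out. The 12 arrays entered a limma model (version 3.58.1, R 4.3.3) with a mean for each of the 4 groups, using lmFit and eBayes with trend. There were 8 residual degrees of freedom. P-values are two-sided and adjusted by Benjamini-Hochberg over the 15922 probe sets tested, at 0.05. Python 3.11.15, numpy 2.4.6, pandas 2.3.3 and matplotlib 3.10.9 were used for tables and figures.

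The members and gene lists were chosen with earlier results of these data known. Named were the members, up to 4 genes past the threshold per list and direction, and the 5 genes most like each member. Beyond that rule, LHCB4.2, LHCB4.3, PSAE-1, PRK, SBPASE, ATPC2 and list genes that did not pass are named to account for the lists. Plastid genes were found by their chromosome, since the table gives them no ATCG code. Alternatives were another constant, other filters, normalization between arrays, no trend, fewer arrays and a replicate block.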

Additional observations from a re-analysis of the deposited data

How the results depend on the processing

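Of 302 values of the 3 genes under the alternatives, 274 kept their direction and their side of the threshold, 16 lost the call, 6 gained it and 6 changed sign, the last all in differences that passed in no setting. All 104 counts of called probe sets stayed within 1.5 times the count reported. The time calls of LHCB4.1 and of RCA at pH 4.5 held throughout, as did that of PSAN at pH 6. PSAN with time at pH 4.5 lost its call with an added constant of 1 (-1.29, limma adjusted p = 0.0873), without the filter (-1.14, limma adjusted p = 0.0639) and without the trend (-1.14, limma adjusted p = 0.0513). PSAN with pH at 8 h lost it without the filter (-1.11, limma adjusted p = 0.0644), without the trend (-1.11, limma adjusted p = 0.0517) and with only the 2 groups compared (-1.11, limma adjusted p = 0.0777). Its log2 difference there was -1.70 with a constant of 1 and -0.78 with one of 20% of the median, and with time at pH 6 it was -3.09 and -1.86. LHCB4.1 with pH at 8 h passed with the filter at the 50th percentile (0.45, limma adjusted p = 0.0486) and with the replicate block (0.45, limma adjusted p = 0.0398), which changed no other call. That filter left RCA and PSAN out, so it gave no value for them. The causes were not tested.

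Leaving out each array in turn gave log2 differences, 8 h minus 1 h at pH 6, of -0.82 to -0.56 for RCA, -0.95 to -0.71 for LHCB4.1 and -2.94 to -1.91 for PSAN. At pH 4.5 they were -1.25 to -0.88, -1.08 to -0.74 and -1.25 to -1.002. For pH 6 minus pH 4.5 at 8 h they were 0.27 to 0.48, 0.32 to 0.57 and -1.70 to -0.67, and at 1 h -0.15 to 0.22, 0.19 to 0.53 and -0.035 to 0.22. For the difference between the pH effects they were 0.15 to 0.53, -0.079 to 0.26 and -1.79 to -0.77. Whether the replicate numbers pair the samples is not stated and could not be decided from the values. The deviations of same-numbered arrays of different groups correlated at -0.0876 to 0.166 (median 0.0417), with 5 of 18 pairs over 0.1. Those of differently numbered arrays correlated at -0.193 to 0.208 (median -0.0315), with 2 of 36 pairs over 0.1. With the replicate block the counts of called probe sets were 3239 and 3875 with time at pH 6 and pH 4.5, 4582 and 1839 with pH at 8 h and 1 h, and 2610 for the difference between the pH effects, against 3094, 3761, 4416, 1706 and 2456 without it. Signals near or under 10.4, as in PSAN after 8 h, limit what its fold changes can show.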
